A study of Homo sapiens with 15 samples.

Results

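The 10 genes described here are targets of the hypoxia-inducible factors (HIF): CA9, CA12, VEGFA, ADM, BNIP3, BNIP3L, DDIT4, MXI1, NDRG1 and ANKRD37. They were named as a list and read in the per-library UMI count columns of both deposited tables. All 10 were listed, among 15230 genes in a table of untreated and day 7 libraries (the day 7 table) and 12575 genes in a table that adds day 3 (the day 3 and day 7 table), and all 10 passed the filter on low counts in both. The list was drawn up with earlier results of the same libraries in view, under the working name of hypoxia targets with a transient rise at day 3. Their changes over time in b2 are therefore given as a description.

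The samples were 15 bulk MARS-seq libraries of immortalized human astrocytes (IHA), a fetal line immortalized with SV40, in which doxycycline (1 µg/ml) switched on IDH1-R132H, a mutant IDH1 named in the series' design text. The groups were untreated cells (3 libraries tagged b1 and 3 tagged b2), cells at day 3 of doxycycline (4 libraries, all b2) and cells at day 7 (1 library of b1 and 4 of b2). Every sample carries the genotype label WT IDH1, all were grown in the same EGF-supplemented medium, and the tags b1 and b2 are taken here as batches. The promoter that drives the inducible gene, and whether the line is 1 clone, are stated in no source used here. No doxycycline-treated cells without the inducible gene are among the samples, and the labels give the untreated cells no day, so mutant IDH1, doxycycline and time in culture cannot be told apart.

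HIF is a dimer of an oxygen-labile alpha subunit (HIF1A or EPAS1) and a stable partner (ARNT). With oxygen, prolyl hydroxylases of the EGLN family mark the alpha subunit for destruction through VHL. When hydroxylation slows, the dimer binds short promoter and enhancer elements and raises transcription of genes for glucose use, pH control, vessel growth and the removal of mitochondria. The hydroxylases use alpha-ketoglutarate, which mutant IDH1 turns into 2-hydroxyglutarate, and this is why HIF targets are often examined in cells with mutant IDH1.

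The binding element has a core of ACGTG or GCGTG, which was looked for on both strands of RefSeq promoter windows (GRCh38.p14, 250 bases before to 50 after each annotated start). Of the 10 genes, 7 had a window, 9 windows in all because MXI1 has 3. A core of either kind was in 8 of these 9, in 72 of 91 windows (79.1%) of other hypoxia targets described further on, and in 48.4% of all 35116 windows. ACGTG was in 5 of the 9 and in 21.4% of all windows, and GCGTG in 6 of the 9 and in 36.5% of all. A match describes the letters only. The windows of 4 genes are shown because they differ in cores and, as given below, in course: CA9 and BNIP3 had their highest mean at day 3, ADM and CA12 at day 7. ANKRD37, not shown, does not follow this split: it has 3 ACGTG and 0 GCGTG cores, and its highest mean was at day 7. DDIT4, also not shown, has 1 ACGTG and 3 GCGTG cores. Whether cores go with course was not tested. The windows shown run 5′ to 3′ on the gene's strand, and capitals mark each core, which reads CACGT or CACGC where it lies on the opposite strand. Positions count from 1 at the annotated start, with -1 the base before it. CA9 has 1 ACGTG, on the opposite strand at -18 (window chr9:35673678-35673977, plus strand). BNIP3 has 2 ACGTG cores that overlap at -134 and -133 as CACGTG, and 4 GCGTG cores (window chr10:131981874-131982173, minus strand). ADM has 1 GCGTG at -101 (window chr11:10304823-10305122, plus strand), and CA12 has 2 GCGTG cores (window chr15:63381797-63382096, minus strand).
CA9: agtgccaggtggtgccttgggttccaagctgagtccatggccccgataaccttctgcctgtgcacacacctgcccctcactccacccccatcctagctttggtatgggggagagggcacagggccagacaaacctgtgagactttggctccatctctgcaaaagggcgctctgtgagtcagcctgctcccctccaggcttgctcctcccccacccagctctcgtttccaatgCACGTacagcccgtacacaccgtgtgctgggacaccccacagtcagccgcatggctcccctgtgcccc
BNIP3: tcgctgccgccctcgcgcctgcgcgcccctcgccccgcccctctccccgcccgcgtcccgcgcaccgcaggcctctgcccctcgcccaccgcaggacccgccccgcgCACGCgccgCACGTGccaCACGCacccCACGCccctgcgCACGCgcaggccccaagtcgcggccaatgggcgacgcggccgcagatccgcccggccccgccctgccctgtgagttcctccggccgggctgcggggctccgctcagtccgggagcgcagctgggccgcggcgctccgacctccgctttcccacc
ADM: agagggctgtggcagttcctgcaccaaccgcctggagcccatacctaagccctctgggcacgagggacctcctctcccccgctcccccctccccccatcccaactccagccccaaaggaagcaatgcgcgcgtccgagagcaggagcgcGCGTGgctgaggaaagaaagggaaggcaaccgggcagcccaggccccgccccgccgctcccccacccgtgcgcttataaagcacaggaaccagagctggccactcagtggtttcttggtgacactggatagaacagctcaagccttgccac
CA12: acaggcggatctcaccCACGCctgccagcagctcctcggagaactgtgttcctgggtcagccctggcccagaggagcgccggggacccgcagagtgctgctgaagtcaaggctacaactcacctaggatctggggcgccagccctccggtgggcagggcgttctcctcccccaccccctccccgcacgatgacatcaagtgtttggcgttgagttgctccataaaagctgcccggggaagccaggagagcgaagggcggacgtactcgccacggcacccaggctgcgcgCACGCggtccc

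Libraries held 2573290 to 5567651 UMIs each in the day 7 table. In the other table they held 1816599 to 4656705, and day 3 libraries 1816599 to 2725520. Levels are given as CPM, UMI counts scaled to the TMM-adjusted library total, and a change is called where edgeR's adjusted p is under 0.05. IDH1 itself was called in none of the 6 comparisons (log2 changes with doxycycline of 0.02 to 0.27), and whether transcripts of the induced gene carry the counted 3′ end is not stated. Of 13 astrocyte markers 9 were listed in the day 7 table, led by VIM (6000 to 9180 CPM), while GFAP, AQP4, SLC1A2 and ALDH1L1 were not listed. In the day 3 and day 7 table, the summed markers of each of 6 other cell types lay apart between day 7 and untreated b2 libraries. For pericytes and fibroblasts (4 of 7 listed; RGS5, DCN and LUM not) the summed level was 1230 to 1290 CPM in untreated b2 libraries, 1030 to 1070 CPM at day 3 and 789 to 1010 CPM at day 7. For neurons (2 of 6 listed; RBFOX3, MAP2, SYP and DCX not) it was 76.8 to 90.9, 119 to 133 and 104 to 169 CPM at the same times, and for endothelium (3 of 6 listed; PECAM1, CDH5 and VWF not) 21.1 to 27.0, 10.7 to 20.1 and 11.1 to 14.6 CPM. For microglia (2 of 6 listed; PTPRC, AIF1, CX3CR1 and P2RY12 not) it was 124 to 132, 116 to 132 and 154 to 175 CPM. For oligodendrocytes (1 of 6 listed; OLIG1, OLIG2, MOG and SOX10 among those not) it was 14.5 to 15.2, 9.5 to 14.6 and 9.97 to 11.1 CPM, and for keratinocytes (5 of 6 listed, KRT5 not) 747 to 769, 766 to 879 and 676 to 710 CPM. Neuron sums of the day 7 table overlapped (8.21 to 8.91 CPM untreated and 7.77 to 10.9 CPM at day 7, b2). Keratinocyte sums there were 655 to 687 CPM in untreated b2 and 616 to 655 CPM in day 7 b2 libraries. Untreated b1 libraries had 1040 to 1100 CPM. In the day 3 and day 7 table, TUBB3 made up most of the neuron sum (68.4 to 160 CPM) and is absent from the other. CD68 made up most of the microglia sum, at 115 to 172 CPM there and 30.5 to 59.7 CPM in the day 7 table. KRT18 made up most of the keratinocyte sum, at 654 to 864 CPM in the day 3 and day 7 table and 563 to 1010 CPM in the other. KRT14 had at most 4.78 and 3.93 CPM in these tables, so the sum is not read as a sign of keratinocytes. THY1, part of the pericyte and fibroblast sum, had 477 to 630 CPM in the day 3 and day 7 table and 36.1 to 277 CPM in the day 7 table. The part of these lists in the results below was not tested. In these bulk samples, fewer cells that express a gene and less RNA per cell cannot be told apart.

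The tables share 7 b2 libraries, and the 10 genes did not all have the same counts in both. In the day 3 and day 7 table, BNIP3 had 1.66 to 2.09 times its UMIs of the day 7 table, MXI1 0.516 to 0.629 times and BNIP3L 0.171 to 0.335 times. CA12 had 0.922 to 1.28 times, VEGFA 0.886 to 0.969 times, and CA9, NDRG1, ADM, DDIT4 and ANKRD37 lay within 0.949 to 1.05 times in each of the 7 libraries. Over 9394 genes the median ratio was 0.944, with 54.4% of genes within 10% of equal counts. Why the counts differ was not tested, and levels are compared below only within a table. BNIP3 also has 39 loci named as its pseudogenes in GENCODE, so its counts are uncertain in both tables. GENCODE genes on the opposite strand overlap CA9 (ARHGEF39), DDIT4 (DDIT4-AS1), ANKRD37 (UFSP2), VEGFA (AL136131.3), BNIP3, BNIP3L and MXI1, and no source used here states the strand setting of the counting. In the day 3 and day 7 table, untreated b2 replicates 1 and 2 carry short descriptions that b1 samples also have. Their counts correlated best with the same b2 libraries of the day 7 table (r = 0.870 and 0.869, and up to 0.8615 with other untreated libraries). CA9 had 98 and 119 UMIs in them in both tables, where untreated b1 replicates 1 and 2 had 363 and 189 UMIs. Both libraries were taken as b2.

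**Figure D1:**
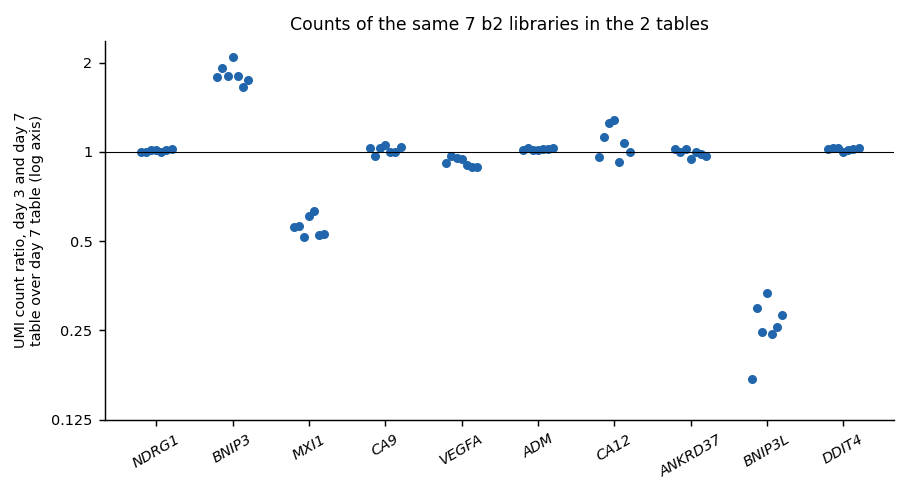
UMI count in the day 3 and day 7 table over that in the day 7 table (log axis) for each of the 10 genes, 1 point per shared b2 library (7 libraries). BNIP3 lies above 1, MXI1 and BNIP3L lie below it, and the other genes lie near 1.

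The b2 time course asks how the 10 genes moved 3 and 7 days into induction. At day 3, NDRG1 rose 3.20-fold, VEGFA 1.51-fold, BNIP3 1.43-fold and MXI1 1.36-fold against untreated libraries. These were 4 of 10 genes called, all higher, where 3.51% of all 10586 genes tested were called and 1.84% were called higher. From day 3 to day 7, CA9 fell 3.04-fold, NDRG1 1.94-fold, MXI1 1.65-fold and BNIP3 1.33-fold, while ADM rose 1.23-fold. That made 4 called lower and 1 higher, against 2.31% and 2.76% of all genes (5.07% in either direction). NDRG1, BNIP3 and MXI1 were thus called in both steps. The working name does not describe the other 7 genes by these calls: VEGFA kept its day 3 level or more, CA9 passed in the second step alone, and BNIP3L, ADM, DDIT4, CA12 and ANKRD37 were not called at day 3. Without untreated replicates 1 and 2, an alternative chosen after seeing the data that leaves 1 untreated library, NDRG1 and BNIP3 were called at day 3 (2 of 10), and VEGFA (0.54) and MXI1 (0.33) were not (edgeR adjusted p = 0.111 and 0.603). With library size alone as the scale, 129 of all genes were called higher and 240 lower at day 3, against 195 and 177 with TMM. Both steps use the day 3 libraries, and the members were chosen on them, so nothing is read from these counts.

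**Figure D2:**
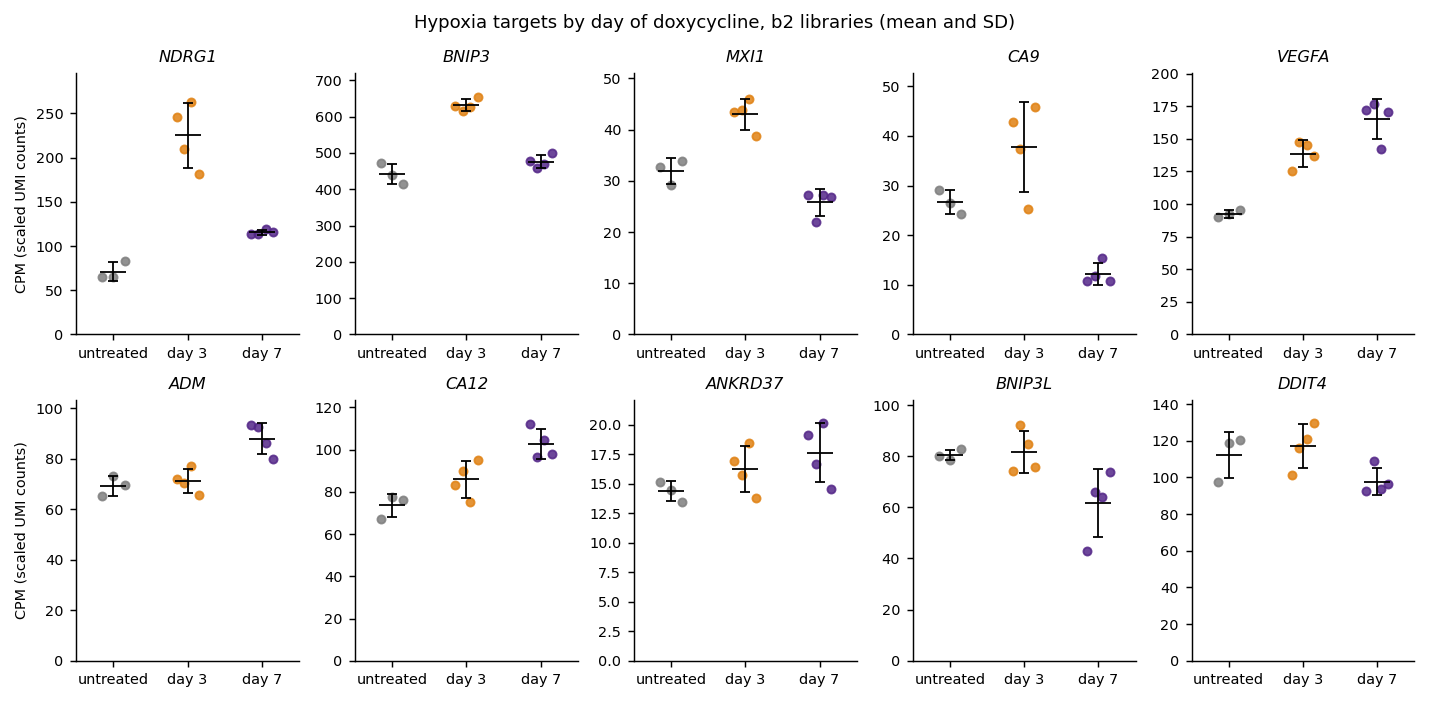
CPM of each of the 10 genes in untreated, day 3 and day 7 b2 libraries (3, 4 and 4 points), with the group mean and SD; each axis starts at 0. NDRG1, BNIP3 and MXI1 are highest at day 3, VEGFA, ADM and CA12 at day 7, and CA9 is lowest at day 7.

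Of the 2 genes for carbonic anhydrases, CA9 encodes a membrane enzyme that hydrates CO2 at the outer cell surface and helps cells export acid. It had 29.1, 26.5 and 24.4 CPM in untreated b2 libraries, 42.8, 37.3, 25.2 and 45.8 CPM at day 3, and 10.7, 11.8, 15.5 and 10.7 CPM at day 7. Day 3 replicate 11 (25.2 CPM) lay among the untreated libraries and the other 3 lay above them, while each day 7 library lay below each earlier one. The step to day 3 was 0.49 ± 0.16 on the log2 scale (SE) and did not pass (edgeR adjusted p = 0.10), and the step from day 3 to day 7 was -1.61 ± 0.17 (edgeR adjusted p = 2.23e-07). Without day 3 replicate 11 the first step was 0.64 and passed (edgeR adjusted p = 0.0169).

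CA12 encodes a second membrane carbonic anhydrase with an outward-facing active site. Its levels were 67.2, 77.5 and 76.1 CPM in untreated b2 libraries, 83.4, 89.9, 75.2 and 95.2 CPM at day 3, and 112, 96.6, 104 and 98.0 CPM at day 7. The day 7 libraries all lay above the others, and 3 of the 4 day 3 libraries lay above the untreated ones. Neither step alone passed, with 0.23 ± 0.10 to day 3 and 0.25 ± 0.09 from day 3 to day 7 (edgeR adjusted p = 0.215 and 0.0878). At day 7 the b2 libraries thus lay below their untreated level in CA9 and above it in CA12.

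Among secreted ligands, VEGFA encodes the main growth factor for blood vessels. It had 89.8, 92.0 and 95.2 CPM in untreated b2 libraries, 125, 147, 145 and 137 CPM at day 3, and 172, 176, 142 and 170 CPM at day 7. All 8 doxycycline-treated libraries lay above the untreated ones, and day 7 replicate 19 (142 CPM) lay among the day 3 libraries. Its log2 change was 0.59 ± 0.09 to day 3 (edgeR adjusted p = 8.18e-05), and 0.25 ± 0.08 for the later step (edgeR adjusted p = 0.0656). Without day 7 replicate 19 the second step passed at 0.31 (edgeR adjusted p = 0.0183).

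ADM encodes adrenomedullin, a peptide that widens vessels. Untreated b2 libraries had 65.1, 73.1 and 69.6 CPM, day 3 libraries 72.1, 70.5, 77.0 and 65.6 CPM, and day 7 libraries 93.5, 92.7, 86.1 and 80.0 CPM. Untreated and day 3 libraries overlapped, and each day 7 library lay above both. The step to day 3 was 0.04 ± 0.10 (95% interval -0.15 to 0.22) and the step to day 7 was 0.30 ± 0.09 (edgeR adjusted p = 0.899 and 0.0362). The second call was lost under DESeq2 and on leaving out any of 7 of the 11 libraries (adjusted p up to 0.132).

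BNIP3 and BNIP3L encode related proteins of the outer mitochondrial membrane that recruit the autophagy machinery to mitochondria. BNIP3 had 471, 439 and 415 CPM in untreated b2 libraries, 630, 614, 627 and 654 CPM at day 3, and 477, 457, 470 and 500 CPM at day 7. The day 3 libraries lay apart above all others, and day 7 and untreated libraries overlapped. The changes were 0.51 ± 0.07 to day 3 and -0.41 ± 0.06 from day 3 to day 7 (edgeR adjusted p = 1.00e-05 and 4.91e-05).

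BNIP3L followed another course, with 80.0, 78.6 and 82.6 CPM in untreated b2 libraries, 74.4, 92.1, 84.7 and 75.8 CPM at day 3, and 42.8, 66.0, 63.9 and 73.7 CPM at day 7. Day 3 libraries straddled the untreated ones, and every day 7 library lay below both groups. The log2 change was 0.03 ± 0.13 to day 3 (95% interval -0.22 to 0.28) and -0.41 ± 0.12 from day 3 to day 7 (edgeR adjusted p = 0.940 and 0.0516). Without day 7 replicate 20 the second step passed at -0.51 (edgeR adjusted p = 0.0124), as it did with DESeq2 (adjusted p = 0.0446).

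MXI1 encodes a partner of MAX that competes with MYC, and DDIT4 (REDD1) a stress-induced inhibitor of mTORC1. MXI1 had 32.7, 29.2 and 33.9 CPM in untreated b2 libraries, 43.4, 43.9, 45.9 and 38.7 CPM at day 3, and 27.3, 21.9, 27.2 and 26.8 CPM at day 7. The 3 groups did not overlap: day 3 lay highest and day 7 lowest. Its log2 change was 0.44 ± 0.12 to day 3 (edgeR adjusted p = 0.0393), with -0.72 ± 0.11 for the later step (edgeR adjusted p = 0.000109). The call at day 3 was lost with library size alone as the scale, under DESeq2, and on leaving out any of untreated replicates 1, 2 or 4 or day 3 replicates 9, 10 or 11 (adjusted p of 0.0682 to 0.204).

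DDIT4 had 97.6, 119 and 120 CPM in untreated b2 libraries, 101, 116, 121 and 130 CPM at day 3, and 92.5, 109, 93.6 and 96.1 CPM at day 7. All 3 groups overlapped. Its changes, 0.07 ± 0.09 to day 3 and -0.27 ± 0.09 from day 3 to day 7, did not pass (edgeR adjusted p = 0.783 and 0.0726). The second passed without day 3 replicate 9 (-0.33, edgeR adjusted p = 0.0380) or without day 7 replicate 18 (-0.32, edgeR adjusted p = 0.0474).

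NDRG1 encodes a cytoplasmic protein induced by hypoxia, by iron chelation and during differentiation. Its levels were 65.1, 64.8 and 83.1 CPM in untreated b2 libraries, 246, 210, 263 and 182 CPM at day 3, and 114, 113, 119 and 116 CPM at day 7. The 3 groups lay apart, with day 3 highest and most spread and day 7 between. The log2 change to day 3, 1.68 ± 0.11 (edgeR adjusted p = 6.66e-10), was followed by -0.96 ± 0.10 from day 3 to day 7 (edgeR adjusted p = 5.19e-07).

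ANKRD37 encodes a small ankyrin-repeat protein and was the least counted of the 10, with 30 to 95 UMIs per library. It had 15.2, 14.5 and 13.5 CPM in untreated b2 libraries, 16.9, 15.7, 18.5 and 13.8 CPM at day 3, and 19.1, 16.7, 20.2 and 14.6 CPM at day 7. The groups overlapped, and neither step passed (0.16 ± 0.18 and 0.14 ± 0.16, edgeR adjusted p = 0.722 and 0.718). The 95% interval of the first step, -0.19 to 0.51, includes a change as large as that of MXI1.

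**Figure D3:**
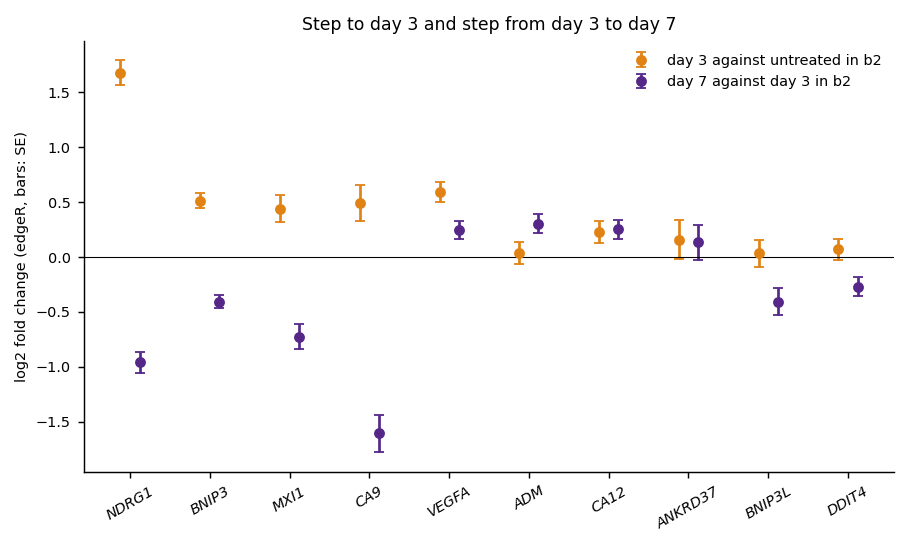
Log2 change from edgeR with its SE for the step from untreated to day 3 and the step from day 3 to day 7 in b2, for the 10 genes. NDRG1, BNIP3, MXI1, CA9, BNIP3L and DDIT4 have a positive first and a negative second value, with BNIP3L and DDIT4 near 0 in the first. VEGFA, ADM, CA12 and ANKRD37 have positive values in both.

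Over the whole span in b2, VEGFA, NDRG1, ADM and CA12 were higher at day 7 than without doxycycline, and CA9 and BNIP3L were lower. In the fit on the day 7 table, the log2 change was 0.79 ± 0.09 for VEGFA, 0.76 ± 0.09 for NDRG1, 0.39 ± 0.09 for ADM and 0.34 ± 0.11 for CA12. CA9 was at -1.09 ± 0.15 and BNIP3L at -0.34 ± 0.07 (edgeR adjusted p = 0.0378 for CA12 and 5.76e-07 to 0.00260 for the other 5). MXI1 (-0.25), DDIT4 (-0.16), ANKRD37 (0.31) and BNIP3 (0.02) did not pass. In all, 4 were higher and 2 lower, where 16.4% of all 11927 genes tested were called, 9.11% higher and 7.24% lower (1087 and 864 genes, and 716 and 1233 with library size alone). A fit of both batches with an additive batch term gives a single day 7 change for b1 and b2 together, not the change in b2. In it, 2 of the 10 were higher and 3 lower. NDRG1 (0.45) and CA12 (0.26) were not called there, and MXI1 was (-0.36, edgeR adjusted p = 0.0284). The counts of the day 3 and day 7 table called the same 6 genes in the same directions, where 15.6% of all genes were called (8.27% higher and 7.31% lower), with BNIP3L at -0.37 and CA12 at 0.48. The CA12 call in the day 7 table was lost under DESeq2, limma-voom and library size alone (adjusted p of 0.0638 to 0.105) and was 0.19 without day 7 replicate 17, whose level was 95.7 CPM against 65.6 to 72.4 CPM in the other day 7 b2 libraries. Untreated libraries enter both this comparison and the step to day 3, so the comparisons are not independent.

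The single day 7 library of b1 gives a second view of day 7, with no replicate of its own; the fit assumes that it varies like the other groups. There, CA9, BNIP3L, MXI1 and BNIP3 were lower than in untreated b1 libraries and VEGFA was higher. These were 4 of 10 genes called lower and 1 higher, where 8.12% of all genes tested were called, 3.82% lower and 4.3% higher. With library size alone as the scale, the median of all genes moved to -0.14 in this comparison, 214 of all genes were called higher and 712 lower, against 513 and 456 with TMM, and the same number of the 10 genes were called in each direction.

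CA9 had 22.1 CPM in the day 7 b1 library, against 89.7, 73.9 and 74.3 CPM in untreated b1 libraries, a log2 change of -1.85 ± 0.22 (edgeR adjusted p = 2.86e-06). BNIP3L had 115 CPM at day 7, against 186, 211 and 189 CPM untreated (-0.76 ± 0.13, edgeR adjusted p = 0.000473). BNIP3 had 239 CPM at day 7, against 368, 356 and 337 CPM untreated (-0.56 ± 0.11, edgeR adjusted p = 0.00186). In these 3 genes the day 7 library lay below all untreated b1 libraries. MXI1 also lay below them, with 25.7 CPM at day 7 against 43.3, 45.4 and 38.3 CPM untreated (-0.71 ± 0.21, edgeR adjusted p = 0.0368). That call was lost under DESeq2 and limma-voom and without untreated b1 replicate 1 or 2 (adjusted p of 0.0601 to 0.0911).

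VEGFA lay above its untreated b1 libraries, with 152 CPM at day 7 against 89.2, 96.6 and 104 CPM untreated (0.66 ± 0.13, edgeR adjusted p = 0.00295). NDRG1 had 109 CPM at day 7, against 127, 134 and 134 CPM untreated, and its change of -0.27 ± 0.13 did not pass (edgeR adjusted p = 0.222). ADM (89.9 CPM at day 7, against 84.3 to 87.6 CPM untreated), CA12 (73.0 against 62.6 to 74.7 CPM), ANKRD37 (14.4 against 12.5 to 16.4 CPM) and DDIT4 (137 against 104 to 135 CPM) did not pass. Their log2 changes were 0.07, 0.07, 0.02 and 0.25.

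**Figure D4:**
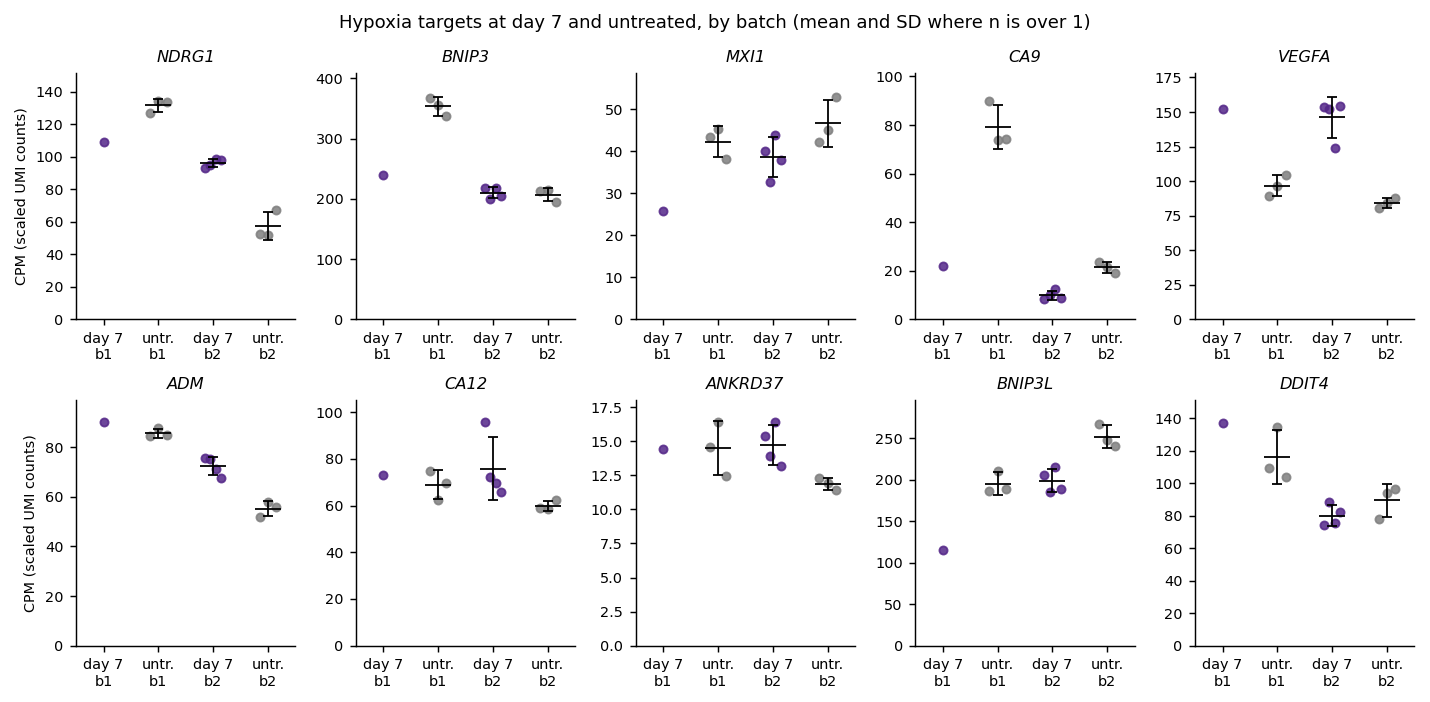
CPM of each of the 10 genes in the day 7 table, for day 7 b1 (1 library), untreated b1 (3), day 7 b2 (4) and untreated b2 (3), with mean and SD where n is over 1; each axis starts at 0. CA9 is lower at day 7 than untreated in both batches and VEGFA higher, while NDRG1 is higher at day 7 than untreated in b2 and lower in b1.

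The difference between the batches was tested as an interaction, the day 7 change in b2 minus that in b1. NDRG1 differed by 1.04 ± 0.16 (edgeR adjusted p = 0.000426) and BNIP3 by 0.58 ± 0.13 (edgeR adjusted p = 0.0118), 2 of 10 genes called, where 2.88% of all genes were called (207 genes or 1.74% higher and 136 or 1.14% lower, and 277 and 100 with library size alone). Day 7 b2 libraries had 93.1 to 98.4 CPM of NDRG1 against 52.2 to 67.1 CPM in untreated b2, and lay below all b1 libraries. BNIP3 had 200 to 219 CPM at day 7 in b2, against 195 to 214 CPM untreated. For the other 8 genes the difference did not pass: it was 0.76 ± 0.27 for CA9 (95% interval 0.23 to 1.29, edgeR adjusted p = 0.127), 0.42 ± 0.15 for BNIP3L (edgeR adjusted p = 0.120) and 0.14 ± 0.16 for VEGFA (95% interval -0.18 to 0.45, edgeR adjusted p = 0.712).

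Untreated cells of the 2 batches differed in 6 of the 10 genes. The same untreated libraries enter the interaction with the opposite sign, so the 2 comparisons are not independent. Untreated b2 libraries had 23.6, 21.5 and 19.3 CPM of CA9, against 89.7, 73.9 and 74.3 CPM in untreated b1 (-1.88 ± 0.13, edgeR adjusted p = 3.04e-11). NDRG1 had 52.7, 52.2 and 67.1 CPM in untreated b2 and 127, 134 and 134 CPM in untreated b1 (-1.22 ± 0.09, edgeR adjusted p = 2.42e-10). In both genes the batches did not overlap. BNIP3 (-0.77 ± 0.07), ADM (-0.63 ± 0.09) and DDIT4 (-0.36 ± 0.11) were also lower in b2, and BNIP3L was higher (0.37 ± 0.08; edgeR adjusted p = 6.05e-09, 3.97e-06, 0.00584 and 0.000455 in the order named). MXI1 (0.14), VEGFA (-0.20), CA12 (-0.21) and ANKRD37 (-0.26) did not pass. This was 5 lower and 1 higher of 10 (60% called), where 47.8% of all genes were called, 24.9% lower and 22.9% higher. With 10 genes the total lies near that share, so it is not read as a result about them. The DDIT4 call was lost without untreated b2 replicate 1 (adjusted p = 0.0515) and without untreated b1 replicate 2. What b1 and b2 stand for is not given in the labels, so culture, RNA handling and sequencing cannot be told apart here.

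A list of 68 other hypoxia targets was read in the same fits. At day 3 in b2, 11 of 61 tested rose and the list's median log2 change was 0.22, against 0.00 for all genes (1.84% of all genes higher). They included ANGPTL4, a secreted inhibitor of lipoprotein lipase (1.73 ± 0.19), SLC2A1, the glucose transporter GLUT1 (0.54 ± 0.07), PFKFB4, a regulator of glycolytic flux (0.82 ± 0.14), and HILPDA, a lipid droplet protein (0.52 ± 0.09; edgeR adjusted p of 5.35e-07 to 0.000918). With library size alone as the scale 10 rose and 1 fell. Without untreated replicates 1 and 2, 1 of them was called. From day 3 to day 7, 4 of 61 rose and 15 fell, where 2.76% of all genes were called higher and 2.31% lower. The list's median was -0.18, against 0.01 for all genes. ANGPTL4 (1.20), STC1 (0.97) and STC2 (0.35) were among those that rose, and the aldolase ALDOC (-0.96), ZNF395 (-0.61), WSB1 (-0.53) and the glucose transporter SLC2A3 (-0.79) were among those that fell. The STC2 call was lost with library size alone, under DESeq2 and limma-voom, and on leaving out any of 9 of the 11 libraries (adjusted p up to 0.153).

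At day 7 in b2, 11 of 63 other hypoxia targets were higher and 6 lower than untreated (9.11% and 7.24% of all genes). Their median was 0.07, against 0.00 for all genes. In b1, 3 of these targets were higher and 11 lower (4.3% and 3.82% of all genes). Their median there was -0.27, against -0.02 for all genes. The b2 counts were 9 higher and 7 lower with library size alone (median 0.00272). The fit with a batch term, which pools the day 7 change of both batches, had 8 higher and 9 lower, with a median of -0.0372. ANGPTL4 (2.98 in b2 and 1.39 in b1) and STC1 (1.41 and 0.74) were higher in both batches, and ALDOC (-0.66 and -1.19) and SLC2A3 (-0.63 and -1.0) lower in both. The b1 counts were 3 higher and 19 lower with library size alone. Between untreated b2 and untreated b1 libraries, 6 of 63 were higher and 45 lower, where 22.9% of all genes were higher and 24.9% lower. The list's median was -0.64, against -0.01 for all genes. Among those lower were the glycolytic genes ENO2 (-1.49), PFKL (-1.41) and PGK1 (-1.09). IGFBP3 (1.47), WSB1 (0.76), LOX and HILPDA (0.55 each) were among those higher in b2. Most of the other hypoxia targets were thus lower in untreated b2 than in untreated b1 cells. Of the 10 genes, 5 were lower, BNIP3L was higher and 4 were not called.

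**Figure D5:**
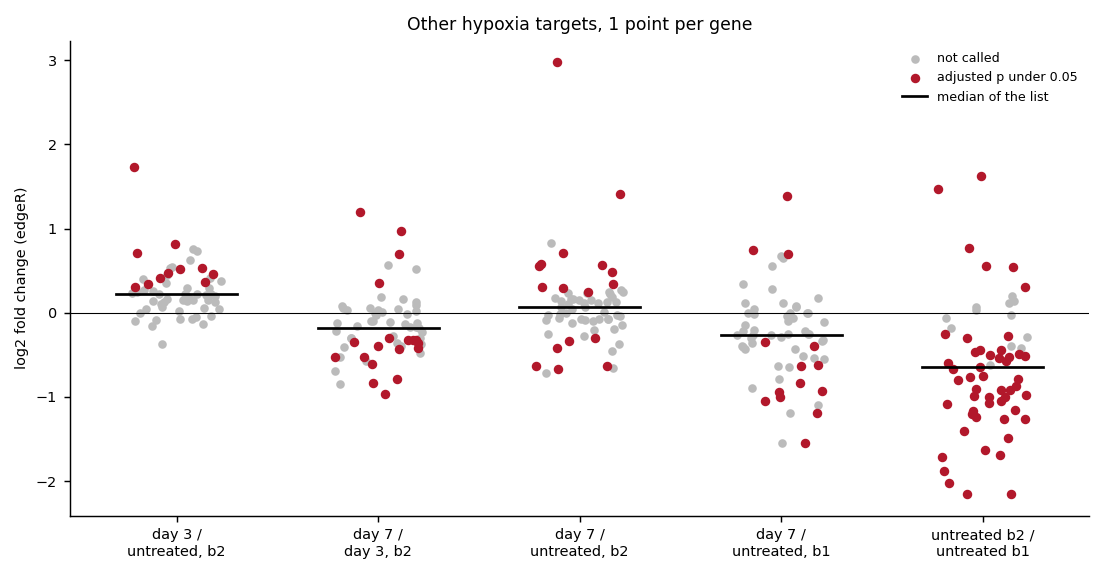
Log2 changes from edgeR of the other hypoxia targets in 5 comparisons, 1 point per gene tested, with the list's median as a line and genes called in red. The median is 0.22 at day 3 in b2, -0.18 from day 3 to day 7, and -0.64 between untreated b2 and untreated b1.

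Of 16 tested genes of the HIF pathway itself, 0 were called at day 3 in b2 with edgeR (3 at an unadjusted p under 0.05, and 0 with DESeq2 or limma-voom), where 3.51% of all genes were called. From day 3 to day 7 1 was called (5.07% of all genes), at day 7 in b2 1 (16.4%) and at day 7 in b1 3 (8.12%). EPAS1, which encodes HIF2-alpha, averaged 105 ± 3.95 CPM in untreated b2 libraries, 124 ± 7.57 CPM at day 3 and 152 ± 8.48 CPM at day 7 (SD, n = 3, 4 and 4). Its log2 change was 0.24 ± 0.08 to day 3 (edgeR adjusted p = 0.110), 0.30 ± 0.07 from day 3 to day 7 (edgeR adjusted p = 0.0128, and 0.0521 and 0.0633 without day 7 replicate 20 or day 3 replicate 11), and 0.57 ± 0.08 at day 7 in b2 by the day 7 table (edgeR adjusted p = 1.44e-05). In b1, EPAS1 had 112 CPM at day 7 against 53.1 ± 2.43 CPM untreated (1.07 ± 0.13, edgeR adjusted p = 4.10e-06). It was the only one of the 16 called in b2 at day 7.

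HIF1A, which encodes the other alpha subunit, averaged 178 ± 24.1 CPM in untreated b2 libraries, 184 ± 30.8 CPM at day 3 and 185 ± 19.3 CPM at day 7, and was called in neither step. In b1 it had 130 CPM at day 7 against 184 ± 20.0 CPM untreated (-0.50 ± 0.15, edgeR adjusted p = 0.0422), a call lost under limma-voom and on leaving out any of 4 libraries (adjusted p of 0.0505 to 0.112). CUL2, a subunit of the VHL ubiquitin ligase, was lower there as well (-0.86 ± 0.26, edgeR adjusted p = 0.0381), a call lost under DESeq2 and limma-voom and without untreated b1 replicate 2 or 3 (adjusted p of 0.0578 to 0.113). Between untreated b2 and untreated b1 libraries, 6 of the 16 were higher and 1 lower (43.8% called). The total lies near the 47.8% of all genes called (22.9% higher and 24.9% lower). The coactivators CREBBP (1.79 ± 0.19) and EP300 (0.55 ± 0.12), EPAS1 (0.69 ± 0.09) and HIF1A (0.47 ± 0.10) were among those higher in untreated b2, and ELOB, a subunit of the VHL ligase, was lower (-0.34 ± 0.08). ARNT, EGLN1 and VHL were called in none of the 4 comparisons with doxycycline, HIF1AN (FIH, which hydroxylates the alpha subunit on asparagine) in neither step in b2, and EGLN2 and EGLN3 were not tested. EGLN1 averaged 31.0 CPM in untreated b2 libraries in the day 3 and day 7 table and 2.86 CPM in the day 7 table.

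Genes that share the roles of the 10 were read in the same fits. Among 9 tested ligands and receptors of the VEGF and adrenomedullin systems, 2 were higher and 3 lower at day 7 in b2, where 16.4% of all genes were called. PGF, a VEGF-family ligand (1.30 ± 0.09), and the co-receptor NRP1 (0.35 ± 0.08) were higher; VEGFB (-0.27 ± 0.08) and the receptor subunits RAMP1 (-0.55 ± 0.12) and RAMP2 (-1.0 ± 0.30) were lower (edgeR adjusted p of 1.54e-10 to 0.0283). In b1, PGF (0.61 ± 0.12) and the receptor FLT4 (0.86 ± 0.24) were higher, 2 of 9 (8.12% of all genes). From day 3 to day 7 in b2, 2 of the 9 rose and 4 fell, where 5.07% of all genes were called. PGF (0.94 ± 0.09) and NRP1 (0.38 ± 0.08) rose, and VEGFB (-0.27 ± 0.07), RAMP1 (-0.56 ± 0.11), RAMP2 (-1.17 ± 0.30) and the scavenging receptor ACKR3 (-1.08 ± 0.30) fell. The calls of VEGFB, RAMP2 and ACKR3 in that step were lost on leaving out any of 5, 3 and 5 of the 11 libraries (adjusted p up to 0.143). At day 7 in b2 those of NRP1, VEGFB and RAMP2 were lost on leaving out any of 1, 3 and 2 libraries, and that of VEGFB under DESeq2. In the fit with a batch term, which pools both batches, NRP1, VEGFB and RAMP2 were not called (0.18, -0.15 and -0.31). The FLT4 call in b1 was lost with library size alone, under DESeq2 and without untreated b1 replicate 3 (adjusted p of 0.0577 to 0.0804).

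Of 14 tested genes for pH regulation, the anion exchanger SLC4A2 (0.38 ± 0.11) and the proton pump subunit ATP6V0D1 (0.27 ± 0.08) were higher at day 7 in b2, and ATP6V0D1 (0.56 ± 0.12) was higher in b1. The 2 of 14 in b2 (14.3%) and 1 of 14 in b1 (7.14%) lay near the shares of all genes called, 16.4% and 8.12%. Both b2 calls were lost with library size alone, on leaving out any of 3 (SLC4A2) or 4 (ATP6V0D1) of the 11 libraries (adjusted p up to 0.16), and under DESeq2, where 1 other gene of the list was called. Of 17 tested mitophagy genes, 1 was higher and 4 lower at day 7 in b2: the receptor SQSTM1 (0.20 ± 0.06) was higher, and OPTN (-0.43 ± 0.07), MAP1LC3A (-0.73 ± 0.16), CALCOCO2 (-0.61 ± 0.14) and FKBP8 (-0.48 ± 0.13) were lower. That was 29.4% of the list, against 16.4% of all genes. FKBP8 was -0.29 without untreated b2 replicate 2 and its call was lost on leaving out any of 4 of the 11 libraries (adjusted p up to 0.121). The SQSTM1 call was lost with library size alone and on leaving out any of 5 libraries (adjusted p up to 0.119). Those of OPTN (-0.20) and CALCOCO2 (-0.36) were lost with the counts of the day 3 and day 7 table. FKBP8 and MAP1LC3A were not called in the fit with a batch term, which pools both batches.

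In the MYC and MAX network, MNT, a repressor that pairs with MAX as MXI1 does, was higher at day 3 (0.52 ± 0.12, edgeR adjusted p = 0.0130, and 0.128 and 0.056 without untreated replicate 1 or day 3 replicate 9) and at day 7 in b2 (0.60 ± 0.11). MYC was higher at day 7 in b2 (0.33 ± 0.07), and MXD3, a relative of MXI1, lower (-0.51 ± 0.10), 3 of 10 tested (16.4% of all genes). Of 12 tested regulators of mTORC1 other than DDIT4, 2 were lower at day 7 in b2 (TXNIP, and TSC2 at -0.37 ± 0.11), and 1 was higher and 1 lower in b1 (AKT1S1 at 0.43 ± 0.13, and TXNIP). These 2 of 12 in each batch (16.7%) stand beside 16.4% of all genes in b2 and 8.12% in b1. The AKT1S1 call was lost with library size alone, under DESeq2 and limma-voom, and on leaving out any of 5 of the 10 libraries (adjusted p up to 0.16). The TSC2 call was lost with the other table's counts, on leaving out any of 3 of 11 libraries, and in the fit with a batch term, which pools both batches (adjusted p up to 0.118). TXNIP, a partner of DDIT4 and of thioredoxin, was lower at each step and in each batch, at -0.58 ± 0.11 to day 3, -0.60 ± 0.11 from day 3 to day 7, and -1.17 ± 0.09 in b2 and -1.39 ± 0.17 in b1 at day 7 (edgeR adjusted p of 7.62e-10 to 0.00363). Of the NDRG family, 0 of 3 tested relatives of NDRG1 were called at day 3 with edgeR, where 3.51% of all genes were called. The count was also 0 at an unadjusted p under 0.05, and 0 with DESeq2 or limma-voom. With 3 genes, a count of 0 lies near the share of all genes and nothing is read from it. ATF4 targets were read because DDIT4 is also induced by ATF4: 15 of 28 tested were lower at day 3 in b2 (1.67% of all genes lower), led by PSAT1 (-1.66), ASNS (-1.86), PCK2 (-1.49) and PHGDH (-0.74), while DDIT4 was not called.

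The 10 genes varied among themselves as much as their calls show. Across the 11 b2 libraries of the day 3 and day 7 table, NDRG1 and BNIP3 had r = 0.895, CA9 and MXI1 0.82, and VEGFA and CA12 0.802 on log2 CPM, while CA9 and ADM had r = -0.855. These values describe libraries that share 3 conditions and the same scaling. The genes most like the mean of the 10 over these libraries, among genes of at least 20 CPM, were SLC2A1 (r = 0.939), TCF3 (0.932), HILPDA (0.925), PFKFB4 (0.92), LSS (0.916), RPS12 (0.906), SAMD11 (0.898), CXCL12 (0.897), RHOB (0.896) and KIF1B (0.878). SLC2A1 averaged 167 CPM in untreated libraries, 242 CPM at day 3 and 209 CPM at day 7, and HILPDA 60.2, 86.7 and 65.0 CPM at the same times. Gene by gene, the closest were SMC5 and WSB1 for CA9, TCF3 and HILPDA for NDRG1, LXN and ASS1 for BNIP3, RAB22A and CTSD for BNIP3L, and PNRC1 and ZNF395 for MXI1. For the others they were MFSD12 and TSSC4 (VEGFA), SLC35F2 and DPF1 (ADM), JMJD8 and LTBP3 (DDIT4), PACSIN2 and TUBA1C (CA12), and MAFF and PARD3 (ANKRD37), with r of 0.852 to 0.973.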

How the data were processed

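Per the labels' protocols, 30 ng of RNA per sample was barcoded and pooled for a bulk form of MARS-seq, which counts 3′ ends. Per the submitters' processing notes, reads were handled with bcl2fastq, cutadapt, STAR 2.4.2a, HTSeq and DESeq2 on hg38. What the authors deposited is 2 tables of whole-number UMI counts per gene and library; every gene listed reaches 6 UMIs in at least 1 library. A further 55 per-sample columns of the same tables were not used.

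Each table was fitted alone with edgeR 4.0.16 in R 4.3.3: filterByExpr grouped by treatment and time (set so after a first fit, of which only the counts of called genes were seen), TMM, a mean per group and a robust quasi-likelihood test, with Benjamini-Hochberg adjustment over all 11927 and 10586 genes tested. The common biological coefficient of variation was 0.0877 and 0.0843. The step to day 3 and the step from day 3 to day 7 came from the day 3 and day 7 table, and the other comparisons from the day 7 table. An SE is the log2 change over the root of edgeR's F, and CPM used TMM-scaled totals. The fits were run on data simulated with the same dispersion for every gene and no group differences other than those added. Real batches differ more, and nothing is read from that run here. Alternatives were DESeq2 1.42.0, limma-voom (limma 3.58.1), other scalings and filters, other sets of libraries and leaving out each library. The plots used matplotlib 3.10.9 (Python 3.11.15).

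Whether replicates are separate cultures is not stated, so p-values measure the spread between these samples, which may be technical. The members, lists and tests were chosen with earlier results of these data known. Named beside the 10 genes were up to 4 called genes per list, direction and comparison with the smallest p, 8 core HIF pathway genes, the 10 genes most like the members' mean (log2 of CPM + 1, at least 20 CPM), and 2 per member. Genes discussed again in a second comparison keep their name there. Promoter windows came from RefSeq on GRCh38.p14 and overlaps from GENCODE on GRCh38.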

Additional observations from a re-analysis of the deposited data

Results flagged for a closer look

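Each of the 10 genes was checked in the day 3 b2 libraries and in the day 7 b2 libraries of each table. Of these groups of 4 libraries, 2 held a value far from the rest. Chance alone gives such a gap in about 1 in 20 independent groups. The day 7 b2 libraries were checked once per table, so these groups are not independent, and nothing is read from the number found. MXI1 had 21.9 CPM in day 7 b2 replicate 18 in the day 3 and day 7 table, where the other day 7 b2 libraries had 26.8 to 27.3 CPM. VEGFA had 124 CPM in day 7 b2 replicate 19 in the day 7 table, where the other day 7 b2 libraries had 152 to 154 CPM. Replicate 19 was also the lowest of them in the day 3 and day 7 table, at 142 CPM, with the others at 170 to 176 CPM.

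By edgeR's interaction test, the day 7 change differed between the batches in 2 of the 10 genes and 5 of 63 other hypoxia targets. It also differed in 2 of 9 ligand and receptor genes and 6 of 24 ATF4 targets. Of all genes, 2.88% were called (1.74% higher and 1.14% lower). Up to 4 genes per list, those with the smallest p, are given. As the b2 change minus the b1 change on the log2 scale, the difference was 1.04 for NDRG1 and 0.58 for BNIP3. It was 1.59 for ANGPTL4, 1.20 for GBE1, 1.02 for PLOD2 and 0.90 for IGFBP3 among other hypoxia targets, and 0.69 for PGF and 0.65 for NRP1 among ligands and receptors. ATF4 targets lay on the other side, at -1.83 for PCK2, -1.63 for PSAT1, -0.77 for SHMT2 and -0.75 for PHGDH. The calls of IGFBP3 and NRP1 were lost under limma-voom, and that of NRP1 also without untreated b2 replicate 2 or untreated b1 replicate 2 or 3. Each difference rests on 1 day 7 library of b1.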

How the results depend on the processing

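The results are limited by 1 day 7 library in b1, low counts of ANKRD37 and CA9, different counts of BNIP3, BNIP3L and MXI1 in the 2 tables, and 2 untreated libraries with shared descriptions. Without those 2, chosen after seeing the data, 2 of the 10 genes and 1 of the other hypoxia targets were called at day 3, and BNIP3L (-0.0142), DDIT4 (-0.0397), HIF1A (-0.0713) and ARNT (-0.0577) turned sign; by construction 1 untreated library was left. Other hypoxia targets called at day 7 in b1 numbered 14, and 22 with library size alone and 25 with b1 libraries alone. With each library left out in turn, other hypoxia targets called at day 3 numbered 9 to 17, the highest without day 7 replicate 17. No other total called, both directions together, moved by over 1.5 times for the 10 genes in the 6 comparisons or for other hypoxia targets in the 4 comparisons with doxycycline. By direction, the 10 genes had 4 higher and 2 lower at day 7 in b2, and 2 and 3 in the fit with a batch term, which pools both batches. They went to 0 higher and 5 lower from day 3 to day 7 under DESeq2, against 1 and 4. With the day 3 and day 7 table's counts, day 7 in b2 went to 4 higher and 1 lower under DESeq2 and library size alone. Other hypoxia targets whose day 7 change differed between batches numbered 5, and 8 with library size alone, 6 under DESeq2 and 2 under limma-voom.

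The numbers shared by untreated b1 and b2 libraries gave no pairing (r of deviations -0.04 for number 1 and 0.04 for number 2). With the replicate block, 6 of the 10 genes were called between untreated b2 and untreated b1, and MXI1 turned sign (-0.00573).

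Uncalled values near 0 turned sign with library size alone: BNIP3L (-0.00432) and ADM (-0.000708) at day 3, BNIP3 (-0.0455) at day 7 in b2, ADM (-0.0556), CA12 (-0.0540), ANKRD37 (-0.11) and VHL (-0.0345) at day 7 in b1, and EGLN1 (0.0193) between untreated batches. At day 7 in b2, BNIP3 was -0.00159 with at least 20 counts in 3 libraries, and HIF1A was 0.0649 with the other table's counts. In the fit with a batch term, which pools both batches, BNIP3 was -0.15 and ARNT 0.0274. With 1 library left out, signs turned within these ranges at day 3: BNIP3L -0.0355 to 0.0707, ADM -0.0132 to 0.0835, DDIT4 -0.029 to 0.126, HIF1A -0.0609 to 0.156, ARNT -0.101 to 0.289, EGLN1 -0.123 to 0.0245 and VHL -0.0938 to 0.506. They did so from day 3 to day 7 for HIF1A (-0.0907 to 0.0991) and EGLN1 (-0.0399 to 0.111), at day 7 in b2 for BNIP3 (-0.0202 to 0.0374) and ARNT (-0.177 to 0.0737), and at day 7 in b1 for ANKRD37 (-0.0902 to 0.0985). They did so too for EGLN1 in the difference between batches (-0.026 to 0.417), and between untreated batches for ARNT (-0.24 to 0.00931) and EGLN1 (-0.219 to 0.23). The cause was not tested.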

Other observations

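ATF4 targets, genes of the amino acid response that serve serine synthesis, one-carbon metabolism and amino acid uptake, differed between the batches in their day 7 change. At day 7 in b2, 13 of 24 tested were lower and 1 higher than untreated (7.24% and 9.11% of all genes), with PSAT1, the serine synthesis aminotransferase, at -1.51 ± 0.09, PCK2, the mitochondrial PEP carboxykinase, at -1.81 ± 0.12, NUPR1, a stress-induced nuclear protein, at -2.48 ± 0.24 and PHGDH, the first enzyme of serine synthesis, at -0.78 ± 0.08 on the log2 scale (edgeR adjusted p of 3.03e-12 to 6.21e-08). The gene higher was PPP1R15A (0.31), whose call was lost under DESeq2 and limma-voom and on leaving out any of 10 of the 11 libraries. At day 7 in b1, CEBPB was higher (0.42 ± 0.11, a call lost with library size alone and without untreated b1 replicate 3), and the count of genes lower was 0 with edgeR, DESeq2 and limma-voom, with 6 at an unadjusted p under 0.05 in either direction. The difference between the batches passed for 6 of 24, all lower in b2, where 2.88% of all genes were called and 1.14% were lower.

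Untreated b2 libraries had 12 of 24 ATF4 targets higher and 4 lower than untreated b1 libraries (22.9% and 24.9% of all genes). The difference between the batches in day 7 change uses these same untreated libraries with the opposite sign, so it is not independent of this comparison. PSAT1 (1.99 ± 0.10), PCK2 (1.57 ± 0.13), MTHFD2, a mitochondrial folate enzyme (0.76 ± 0.10), and NUPR1 (1.87 ± 0.25) were higher in untreated b2. STC2 (-0.997 ± 0.09), PPP1R15A (-1.16 ± 0.11), GDF15 (-0.59 ± 0.11) and DDIT3 (-0.40 ± 0.11) were lower there, as was DDIT4 among the hypoxia targets.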
